A study of Mus musculus with 4 samples.

Results

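The genes described here encode the cornified envelope, the cross-linked protein shell of a keratinizing squamous cell, and the proteins that hold such cells together and release them (desquamation). They were taken by symbol: every gene with a single annotated symbol starting with Sprr or Lce and a digit, plus a list of named envelope, transglutaminase, desmosome, kallikrein and lipid genes. The rule found 45 genes with 57 probe sets, of 18193 genes and 45101 probe sets on the array. They comprised 9 Sprr genes, 15 Lce genes and 21 others, and Flg2 had no probe set with a single symbol. The set was proposed with the difference between these groups already known, so its values are given as a description and support nothing by themselves.

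As a keratinocyte leaves the basal layer, transglutaminases tie small proline-rich (SPRR), late cornified envelope (LCE), loricrin and involucrin proteins into a shell beneath the membrane, and lipids are attached to its outer face. Corneodesmosomes join the dead cells until kallikrein proteases, held back by the inhibitor encoded by Spink5, cut them. Most of the envelope precursors lie in 1 gene cluster, the epidermal differentiation complex. Healthy corneal epithelium is a wet, non-keratinized epithelium, whereas eyelid skin keratinizes, and Sprr genes are known to be induced in the ocular surface under dryness and inflammation.

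The samples were whole tumour-bearing eyes of C57BL/6 mice of both sexes, older than 7 weeks, with 1 Affymetrix array each. The 2 intact animals had no surgery and the 2 splenectomized animals had lost the spleen first. All 4 had then received 10000 luciferase-expressing E.G7-OVA cells, a T lymphoma line carrying chicken ovalbumin, in the anterior chamber, and eyes were taken on day 15. The labels give neither the sex of each mouse nor a sham-operated group, and they do not say how much lid or conjunctiva stayed on an eye. Values are signal intensities scaled by the authors to the same trimmed mean on each array, with a detection call of Present or Absent. The arrays were Present for 53.2% to 58.6% of probe sets, and their number limits the precision of every value. Nothing in the labels says that arrays came from separate surgeries or extractions, so p-values measure only the spread between these samples.

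Detection of the set differed among the arrays. Taking 1 probe set per gene, 19 and 14 of 45 genes were Present on intact 1 and 2, and 35 and 22 on splenectomized 1 and 2. The count was highest on splenectomized 1. In whole eyes, more cells of a type and more RNA per cell cannot be told apart. Of the 45 genes, 24 were detected, meaning Present on at least 2 of the 4 arrays. Of the 24, 12 were Present on all 4 arrays, 5 were called Absent in the intact pair but Present in the splenectomized pair, and 5 were Absent on intact 2 alone. A gene of the second kind passed only through the group where it was high, and so had to differ. The 21 genes that were not detected were Absent on both intact arrays, and 11 of them were Present on splenectomized 1 alone.

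**Figure D1:**
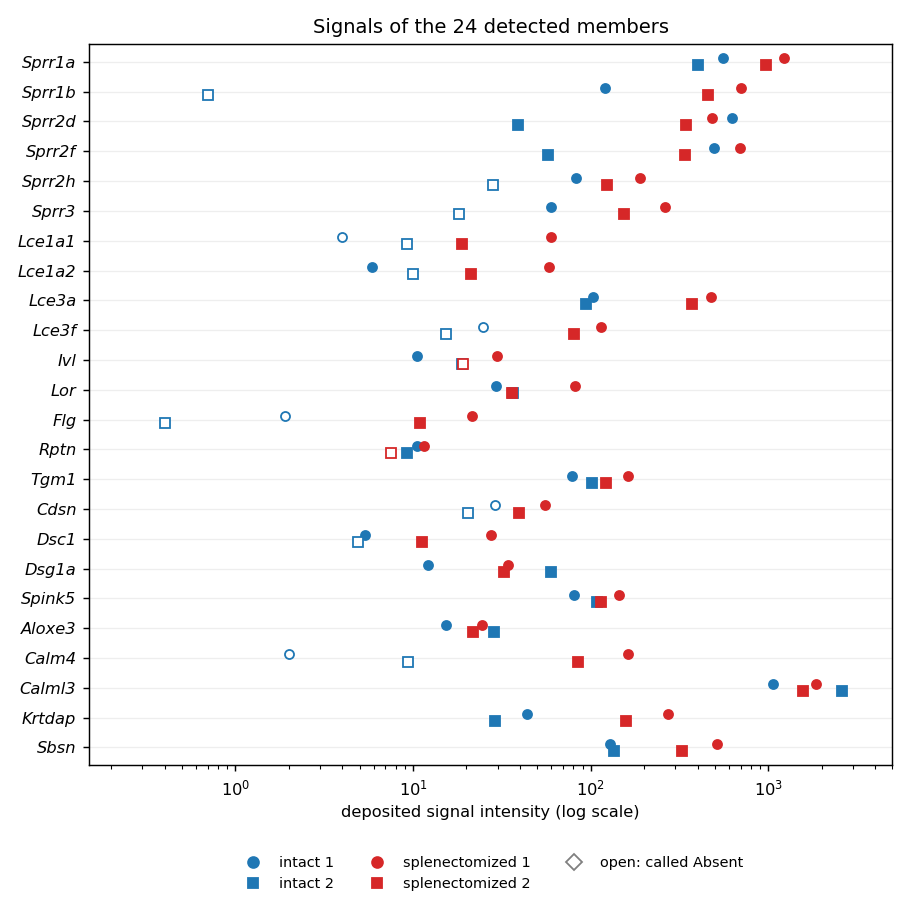
Deposited signal intensity (log axis) of the 24 detected genes on each of the 4 arrays, with open symbols for Absent calls and circles and squares for replicates 1 and 2. Splenectomized signals lie above both intact signals for 17 genes, and intact 2 falls far below intact 1 for Sprr1b, Sprr2d and Sprr2f.

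Of the 24 detected genes, 23 had a higher mean log2 signal in splenectomized mice, and in 17 both splenectomized arrays lay above both intact arrays. Over all 13148 genes tested, 55.1% were higher and 21.7% had no overlap in that direction. None of the 24 had both splenectomized arrays below both intact arrays, beside 19.7% of all genes, and 15 of 24 were more than doubled, beside 3.1%. Of the 45 genes without any detection filter, 41 were higher and 30 did not overlap in that direction, where over all 18193 genes 56.3% were higher and 21.5% did not overlap. Of the 45, 26 were more than doubled, beside 7.77% of all. Because the set was chosen on this contrast, nothing is read from these counts. Lce1l alone did not overlap in the other direction, with all 4 signals between 0.6 and 6.4 and called Absent.

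No gene of the set passed limma at an adjusted p of 0.05, where 0% of all genes did. At an unadjusted p under 0.05, 12 of the 24 were past the threshold, all higher in splenectomized mice, beside 8.97% of all genes in either direction and 6.66% higher. The median log2 difference (splenectomized minus intact) of the 24 was 1.58, with quartiles of 0.71 and 2.33, and over all genes tested it was 0.05. The 12 genes Present on all 4 arrays, whose detection did not rest on either group, had a median of 0.97. They belong to a set chosen on this contrast, so nothing is read from this value. Fits that left out 1 array had a lone array in 1 group, so no counts past the threshold are read from them. In these fits the log2 difference ran from 1.92 to 2.28 for Lce3a and from -0.62 to 3.38 for Sprr2d. A log2 difference of 1 is a doubling of the scaled signal.

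**Figure D2:**
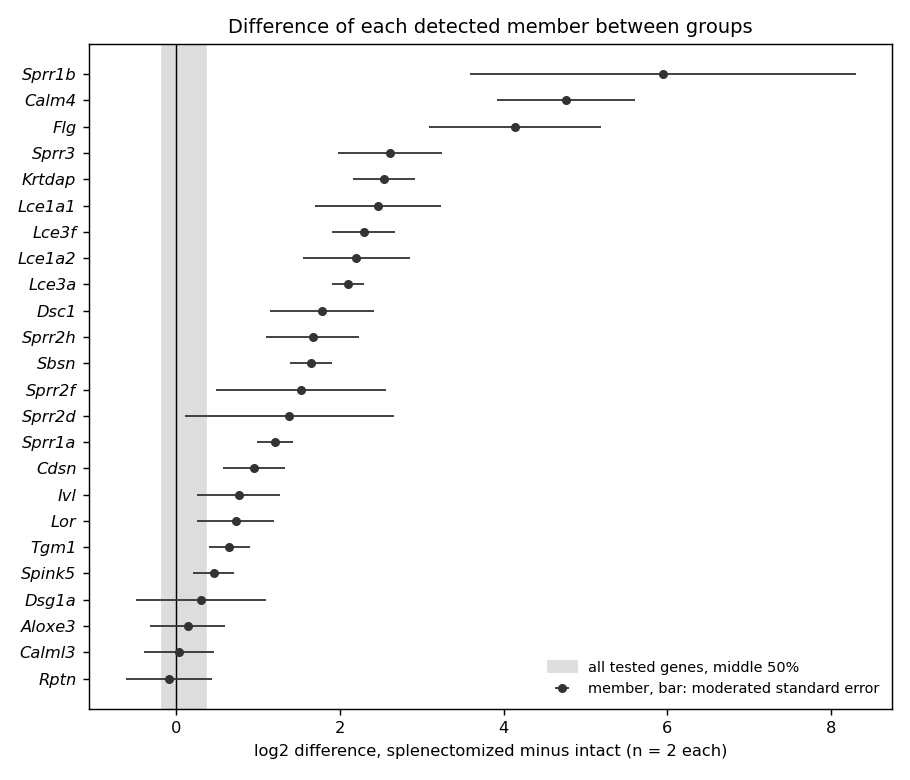
Log2 difference between splenectomized and intact means (n = 2 arrays each) of the 24 detected genes, with moderated standard errors of limma, and a grey band for the middle 50% of all 13148 tested genes. The differences run from -0.09 for Rptn to 5.94 for Sprr1b, whose error of 2.36 is the widest.

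Promoters of 4 genes are shown: Sprr1b with the largest difference of the set, Sprr1a with the highest signal among genes whose groups did not overlap, Krtdap with the largest difference among genes Present on all arrays, and Lce3a with the smallest p. Each window holds 250 bases before and 50 after the start of the RefSeq transcript (GRCm38.p6), read 5′ to 3′ on the gene's strand. Capitals mark TGANTCA, a looser form of the consensus TGAGTCA of AP-1, a stress-responsive factor known to act on Sprr promoters, and TATAAA, the TATA box; the 2 motifs do not overlap in these windows. The windows are chr3:92438730-92439029 on the minus strand for Sprr1b, chr3:92485832-92486131 on the minus strand for Sprr1a, chr7:30787655-30787954 on the plus strand for Krtdap and chr3:92926181-92926480 on the minus strand for Lce3a.
Sprr1b: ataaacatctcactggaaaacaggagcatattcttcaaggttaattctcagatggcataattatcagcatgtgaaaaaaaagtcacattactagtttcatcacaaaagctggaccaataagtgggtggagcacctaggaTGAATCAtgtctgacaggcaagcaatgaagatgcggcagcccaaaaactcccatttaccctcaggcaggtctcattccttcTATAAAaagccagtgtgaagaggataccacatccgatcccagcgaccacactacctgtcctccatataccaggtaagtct
Sprr1a: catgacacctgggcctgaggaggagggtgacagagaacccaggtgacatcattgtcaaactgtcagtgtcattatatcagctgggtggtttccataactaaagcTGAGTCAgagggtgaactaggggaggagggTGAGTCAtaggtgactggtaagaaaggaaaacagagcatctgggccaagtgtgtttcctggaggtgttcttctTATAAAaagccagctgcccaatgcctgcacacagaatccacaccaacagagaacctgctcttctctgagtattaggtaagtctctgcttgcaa
Krtdap: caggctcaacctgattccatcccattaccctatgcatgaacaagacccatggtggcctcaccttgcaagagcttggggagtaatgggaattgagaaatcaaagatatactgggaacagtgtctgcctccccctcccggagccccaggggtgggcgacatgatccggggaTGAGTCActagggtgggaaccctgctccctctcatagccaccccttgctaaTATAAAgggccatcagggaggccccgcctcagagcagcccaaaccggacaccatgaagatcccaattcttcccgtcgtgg
Lce3a: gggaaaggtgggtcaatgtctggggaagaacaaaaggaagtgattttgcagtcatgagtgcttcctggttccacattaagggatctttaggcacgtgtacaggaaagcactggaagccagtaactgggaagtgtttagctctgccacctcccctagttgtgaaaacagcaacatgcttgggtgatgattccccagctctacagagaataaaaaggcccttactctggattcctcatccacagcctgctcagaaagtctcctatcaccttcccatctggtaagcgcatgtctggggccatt

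The Sprr1b window holds TGANTCA starting 111 bases and TATAAA 30 bases before the start, and its stretch, TGAATCA, is not the AP-1 consensus. In Sprr1a, TGANTCA starts 146 and 116 bases before it, and in Krtdap 81 bases before it. The Lce3a window holds neither motif. RefSeq promoters were found for 38 of the 45 genes, in 41 windows. Searched on both strands, TGANTCA was in 31.7% of these windows and in 7.81% of all 32851 promoter windows of the same length. Its 13 genes were Sprr2d, Sprr2f, Sprr2h, Sprr2i, Sprr2k, Sprr1a, Sprr1b, Flg, Ivl, Lor, Rptn, Krtdap and Sbsn, and 0 Lce genes. The consensus TGAGTCA itself was in 24.4% of the windows, of 10 of these genes without Sprr1b, Flg and Rptn, and in 5.20% of all windows. TATAAA was in 41.5% of the windows and 13.6% of all. The core motif of the IRF family of factors was in 2.44% of the windows and 3.44% of all. Copies within the Sprr and Lce families share sequence and are not independent, and a match is a description of letters only.

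The Sprr genes encode small proline-rich precursors of the envelope. All 6 detected Sprr genes had higher means in splenectomized mice, and all 6 were higher on intact 1 than on intact 2. Sprr1a was at 558.5 and 400.2 in intact and 1226.5 and 969.4 in splenectomized mice. Its groups did not overlap, and it was 2.31-fold higher (limma, adjusted p = 0.228). Sprr1b was at 120.9 and 0.7 in intact and 705.3 and 455.0 in splenectomized mice. Both splenectomized arrays were high and intact 2 was called Absent. The log2 difference of 5.94 (SE 2.36, limma adjusted p = 0.559) rests on that array: without intact 2 it was 2.23, and without intact 1 it was 9.66.

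Sprr3, a precursor of moist squamous epithelia such as the oesophagus, was at 59.8 and 18.1 in intact and 262.3 and 153.5 in splenectomized mice, 6.10-fold higher (limma, adjusted p = 0.36). Sprr2h was at 83.2 and 28.1 in intact and 189.9 and 124.4 in splenectomized mice, 3.18-fold higher (limma, adjusted p = 0.514). In both genes the groups stood apart and intact 2 was Absent. Sprr2d and Sprr2f behaved differently among the intact pair. Sprr2d was at 624.6 and 38.9 in intact and 479.3 and 342.7 in splenectomized mice, so intact 1 had the highest signal of the 4 (limma, adjusted p = 0.737). Sprr2f was at 492.8 and 57.5 in intact and 690.7 and 339.7 in splenectomized mice, and its groups overlapped too (limma, adjusted p = 0.683). Without intact 2 the log2 differences of Sprr2d and Sprr2f were -0.62 and -0.025. Sprr2 copies are near-identical, so a probe set can read its neighbours. From the whole set, 3 probe sets annotated with several symbols, Sprr or Lce among them, were left out. The other 3 Sprr genes, Sprr2i, Sprr2k and the pseudogene Sprr2j-ps, were not detected.

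The Lce genes encode late envelope proteins added in the outermost layers, the Lce1 group mainly in skin and the Lce3 group, in humans, in wounded or inflamed skin. Of 15 Lce genes, 4 were detected, and in each the groups did not overlap. Lce3a was at 103.1 and 94.3 in intact and 478.9 and 373.1 in splenectomized mice. It was 4.29-fold higher and had the smallest adjusted p of the set in limma, 0.158. Its log2 difference of 2.10 kept within 1.92 to 2.28 when any 1 array was left out. Lce3f, Absent on both intact arrays, was at 24.9 and 15.4 in intact and 113.7 and 80.4 in splenectomized mice, at least 4.88-fold higher (limma, adjusted p = 0.212). Folds written "at least" set an Absent signal to the median Absent signal of its array where it lay below that. This floor is a convention and not a lower confidence limit. No signal of Lce3f or Cdsn lay below it, so their folds equal those without it. The limma interval of the log2 difference began at 1.31 for Lce3f, 0.50 for Lce1a1, 1.46 for Flg, -0.011 for Cdsn and 2.61 for Calm4.

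Lce1a1 and Lce1a2 had lower signals. Lce1a1 was at 4.0 and 9.2 in intact and 59.8 and 18.9 in splenectomized mice, at least 4.64-fold higher (limma, adjusted p = 0.492). Lce1a2 was at 5.9 and 10.0 in intact and 58.4 and 21.3 in splenectomized mice, 4.59-fold higher (limma, adjusted p = 0.47). Splenectomized 1 was the highest array for both, as for 12 of the 15 Lce genes. The Lce1 copies are similar in sequence, so these 2 probe sets are not independent readings. Of the 11 Lce genes that were not detected, 6 were Present on splenectomized 1 alone, among them Lce1h at 127.2 and Lce3b at 132.6 on that array. Lce3c was Absent on every array although its signals were 15.5 and 32.6 in intact and 193.2 and 195.9 in splenectomized mice, and no fold is given for it.

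Loricrin (Lor) and involucrin (Ivl), classical major precursors of the epidermal envelope, had log2 differences of 0.73 and 0.76. The chosen Lor probe set was at 29.5 and 36.5 in intact and 81.3 and 36.3 in splenectomized mice, where splenectomized 2 lay within the intact range (limma, adjusted p = 0.673). A second Lor probe set, the 1 annotated with the RefSeq messenger RNA and Present on splenectomized 1 alone, was at 2.7 and 1.8 in intact and 61.0 and 14.1 in splenectomized mice. The remaining Lor probe set was at 9.9 and 14.3 in intact and 13.4 and 9.3 in splenectomized mice. The probe sets of Lor thus disagree. The chosen Ivl probe set was between 10.5 and 29.7 on the 4 arrays (limma, adjusted p = 0.681). Another Ivl probe set, annotated with the RefSeq messenger RNA, was Absent on all arrays. It was at 2.0 and 1.4 in intact and 1.1 and 1.3 in splenectomized mice.

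Filaggrin (Flg), hornerin (Hrnr) and repetin (Rptn) are long repeat proteins that bundle keratin or join the envelope. Flg was Absent on both intact arrays at 1.9 and 0.4, and Present on both splenectomized arrays at 21.4 and 11. This is at least 2.65-fold higher, at low signals (limma, adjusted p = 0.397). Hrnr was Present on splenectomized 1 alone, at 7.0. The chosen Rptn probe set was between 7.5 and 11.5 on the 4 arrays, with a log2 difference of -0.09 (limma, adjusted p = 0.955). Another Rptn probe set, the 1 annotated with the RefSeq messenger RNA, was at 3.4 and 0.8 in intact and 75.9 and 13.0 in splenectomized mice. The remaining Rptn probe set was between 6.1 and 8.1 on the 4 arrays. The reading for this gene thus depends on the probe set.

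Of the transglutaminases that cross-link the envelope, Tgm1, the membrane-bound enzyme of keratinocytes, was Present throughout. It was at 78.9 and 101.9 in intact and 161.7 and 122.4 in splenectomized mice, 1.57-fold higher with no overlap (limma, adjusted p = 0.556). Tgm3 was Absent on all arrays. Corneodesmosin (Cdsn), which seals junctions between cornified cells, was Absent on both intact arrays at 28.9 and 20.3. It was Present on both splenectomized arrays at 55.5 and 39.4, at least 1.93-fold higher (limma, adjusted p = 0.558). The limma interval of its log2 difference, -0.011 to 1.91, did not exclude the absence of a change. The desmosomal cadherin gene Dsc1 was at 5.4 and 4.9 in intact and 27.6 and 11.3 in splenectomized mice (limma, adjusted p = 0.527), while a second Dsc1 probe set stayed at 10.3 or below. Its partner Dsg1a was at 12.2 and 60.2 in intact and 34.4 and 32.5 in splenectomized mice, with the intact arrays on either side (limma, adjusted p = 0.889).

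Within the set, the protease side of desquamation was scarcely measured. Some kallikreins outside the set were Present on all 4 arrays and are counted in a list below. Klk5 and Klk6 were Absent on all arrays, and Klk7, the chymotrypsin-like kallikrein that cuts corneodesmosin, was Present on splenectomized 1 alone, at 57.5 against 6.4 to 17.5 on the other arrays. The chosen probe set of Casp14, the caspase that takes part in filaggrin breakdown, was likewise Present only there, at 37.7, with 33.6 to 51.1 elsewhere. Another Casp14 probe set, annotated with the RefSeq messenger RNA, was Absent on all arrays, at 1.8 to 7.1. Spink5, which encodes the kallikrein inhibitor LEKTI, was at 81.0 and 108.5 in intact and 143.9 and 115.1 in splenectomized mice, 1.37-fold higher (limma, adjusted p = 0.649). Of the lipoxygenases that prepare envelope lipids, Aloxe3 was between 15.4 and 28.7 with overlapping groups (limma, adjusted p = 0.913), and Alox12b was Absent on all arrays.

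The secreted and calcium-binding genes split. Krtdap, a secreted peptide of differentiating keratinocytes, was at 44.1 and 28.8 in intact and 271.0 and 158.2 in splenectomized mice, 5.81-fold higher (limma, adjusted p = 0.19). Sbsn, suprabasin of the suprabasal layers, was at 129.2 and 134.5 in intact and 517.4 and 327.8 in splenectomized mice, 3.12-fold higher (limma, adjusted p = 0.2), and its 3 probe sets gave log2 differences from 1.58 to 1.82. Both genes stood apart between the groups on chromosome 7, outside the envelope gene cluster.

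Calm4, a calmodulin-like protein of mouse epidermis also called Scarf, was Absent on both intact arrays at 2.0 and 9.4 and Present at 163.0 and 84.8 in splenectomized mice. It was at least 16.1-fold higher (limma, adjusted p = 0.22). Calml3, its neighbour on chromosome 13 and a calmodulin-like protein of squamous epithelia, was at 1067.8 and 2590.5 in intact and 1847.8 and 1574.7 in splenectomized mice. The intact arrays lay on either side of both splenectomized arrays, with a log2 difference of 0.04 (95% interval -1.05 to 1.13, limma adjusted p = 0.977).

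Of the 45 genes, 29 lie on chromosome 3 between Lor and Rptn, in the order given by RefSeq (GRCm38.p6). The 14 detected ones had a median log2 difference of 1.88, and the 10 detected genes on other chromosomes a median of 0.80, a difference that was not tested. Among the other genes of that interval, 6 had a probe set and 2 were detected. Kprp, a keratinocyte proline-rich protein, was at 15.4 and 20.0 in intact and 54.6 and 40.7 in splenectomized mice, and Crct1 was 4.26-fold higher (limma, adjusted p = 0.461). Kprp was named after its values were seen. In both, the groups did not overlap.

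**Figure D3:**
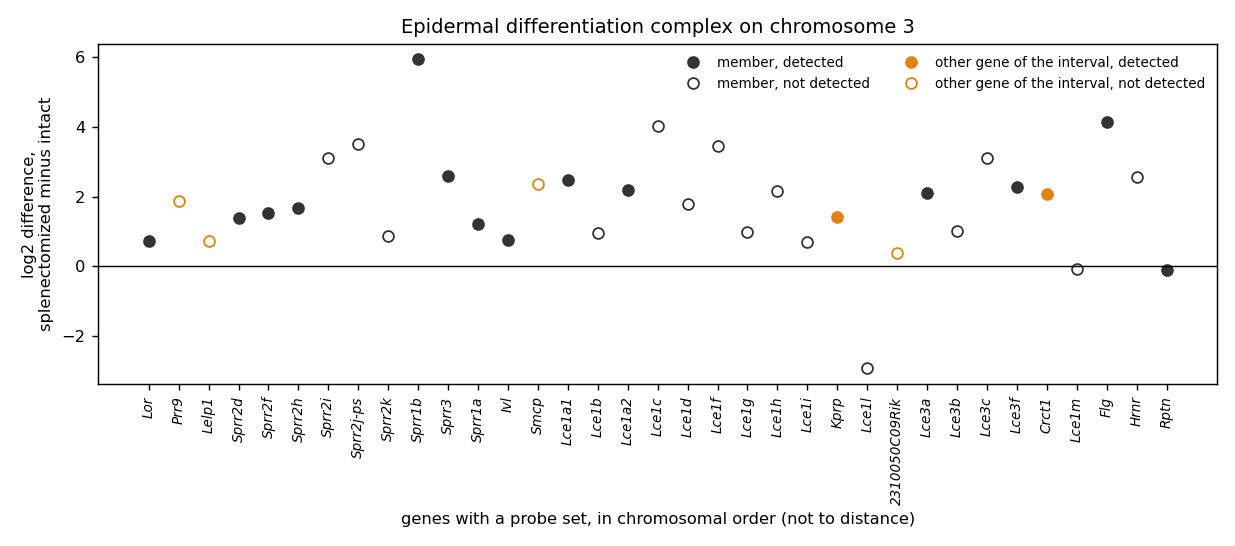
Log2 difference between splenectomized and intact means for every gene with a probe set from Lor to Rptn on chromosome 3, in chromosomal order and not to distance, with open symbols for genes that were not detected. Values above 0 run along the whole interval, and Lce1l at -2.92, Absent on all 4 arrays, lies lowest.

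Genes outside the set were read from lists of epithelial genes and of other cell types. Beside the set, the keratins of keratinized skin were higher in splenectomized mice in 8 of 8 tested genes. Of these, 3 had an unadjusted limma p under 0.05 and 0 passed the adjusted threshold. The list had 11 genes on the array. Of those not tested, Krt2 and Krt77 were Absent on all arrays and Krt78 was Present on splenectomized 1 alone. The mean log2 signal in splenectomized mice was lower for Krt2 and higher for Krt77 and Krt78. Krt1, a keratin of suprabasal epidermis, was at 18.8 and 41.1 in intact and 347.0 and 159.6 in splenectomized mice, 8.47-fold higher (limma, adjusted p = 0.22). Its partner Krt10 was 4.61-fold higher (limma, adjusted p = 0.418). The stress keratins Krt6a, Krt6b and Krt17 had log2 differences of 0.15, 0.26 and 0.20 with overlapping groups, and Krt16, another of them, was 1.75-fold higher without overlap (limma, adjusted p = 0.512).

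Genes of basal and corneal epithelium were divided in direction. Of 15 tested genes of corneal epithelium, 8 were higher and 7 lower, with a median log2 difference of 0.03, 1 in each direction at an unadjusted p under 0.05 and 0 at the adjusted threshold. Krt12, the keratin that defines corneal epithelium and was named after its values were seen, was at 406.7 and 1648.1 in intact and 843.2 and 720.1 in splenectomized mice. Krt5, of basal cells, was at 1870.0 and 2659.2 in intact and 2525.4 and 2061.3 in splenectomized mice (limma, adjusted p = 0.959). The other basal keratins Krt14 and Krt15 had log2 differences of 0.43 and -0.16. Within this list Ly6d, a surface protein of stratified epithelia, was 4.79-fold higher (limma, adjusted p = 0.329), and Upk1b, a uroplakin of the ocular surface, was lower in splenectomized mice with no overlap, at 149.3 and 176.9 against 244.0 and 496.4 in intact mice (limma, adjusted p = 0.509). Of 9 tested genes of conjunctiva and mucosa, 4 were higher and 5 lower, among them the mucosal keratin Krt13, 1.64-fold higher (limma, adjusted p = 0.437), while its partner Krt4 had a log2 difference of 0.30. In this list 2 genes were higher and 1, the mucin Muc1, was lower at an unadjusted limma p under 0.05, and 2 in each direction did not overlap. Muc1 was at 80.8 and 132.8 in intact and 58.2 and 58.4 in splenectomized mice, lower with no overlap (limma, adjusted p = 0.545). Agr2, which goblet cells use to fold mucins, had a log2 difference of -0.88, also lower with no overlap (limma, adjusted p = 0.633). Tff1, of the same list, was 1.60-fold higher with no overlap (limma, adjusted p = 0.524). The other goblet cell genes of the list, Muc5ac, Muc5b, Tff3 and Spdef, were Absent on all arrays and not tested. Their mean signals were higher in splenectomized mice. All 4 tested genes of meibomian and sebaceous gland were higher, 1 at an unadjusted p under 0.05, and of 2 tested hair genes 1 was higher.

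Other genes of the same pathways were mixed, and 0 passed at the adjusted threshold in any list. Of 17 tested envelope precursors and desmosome genes, 13 were higher and 5 had an unadjusted p under 0.05, all higher. Cnfn, cornifelin of the envelope, was at 141.8 and 70.9 in intact and 451.7 and 309.5 in splenectomized mice, 3.73-fold higher (limma, adjusted p = 0.287). Tgm2, the tissue transglutaminase found in many cell types, was at 1692.6 and 1545.4 in intact and 3051.0 and 2679.9 in splenectomized mice (limma, adjusted p = 0.212). Cstb, the cathepsin inhibitor cystatin B, was 1.38-fold higher (limma, adjusted p = 0.488). Dsp, desmoplakin, was 1.35-fold higher with overlapping groups, and Perp, a desmosome protein, was at 3010.1 and 3324.8 in intact and 2908.6 and 2812.4 in splenectomized mice. Of 15 tested kallikreins, proteases and inhibitors, 12 were higher, and Slpi, a secreted protease inhibitor of mucosal surfaces and neutrophils, was 3.63-fold higher (limma, adjusted p = 0.346). The lysosomal proteases Ctsc and Ctsd, which macrophages also make, were 1.71-fold and 1.58-fold higher (limma, adjusted p = 0.212 and 0.365), and Spink12 was 2.13-fold higher (limma, adjusted p = 0.612).

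Of 13 tested genes of the epidermal lipid barrier, 8 were higher, with a median log2 difference of 0.09. Cyp4f39, a fatty acid hydroxylase of the skin barrier, was 2.68-fold higher (limma, adjusted p = 0.492), and Elovl1, a fatty acid elongase, had a log2 difference of -0.07. Asprv1, the protease that processes filaggrin, was 1.07-fold higher with overlapping groups. Of 26 tested regulators of keratinocyte differentiation, 18 were higher and 1 had an unadjusted p under 0.05. Klf4, a factor needed for the skin barrier, was at 471.9 and 832.9 in intact and 721.0 and 721.4 in splenectomized mice (limma, adjusted p = 0.806). Of other transcription regulators, Hopx had a log2 difference of -0.13, Tfap2a of 1.01 and Pou3f1, at signals of 0.9 to 20.2, of 2.64. Of 16 tested alarm and antimicrobial genes, 15 were higher and 5 had an unadjusted p under 0.05. These include S100a8, 2.26-fold higher, and Lcn2, 1.75-fold higher (limma, adjusted p = 0.461 and 0.446), both of which neutrophils also make. S100a9, the partner of S100a8, was 1.72-fold higher, and the cystatin-like Stfa3 2.09-fold (limma, adjusted p = 0.547 and 0.514).

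Each array's level of a list was summarised as a score, the average, over its tested genes, of how far the log2 signal lay from that gene's 4-array mean. The score of the 24 genes was -0.63 and -1.13 in intact and 1.22 and 0.53 in splenectomized mice. Of the 17 other lists, 7 also had both splenectomized scores above both intact scores. They were keratins of keratinized skin (-0.85 and -0.23 in intact, 0.91 and 0.17 in splenectomized mice), other envelope and desmosome genes (-0.51 and 0.020, 0.45 and 0.044), other kallikreins and inhibitors (-0.30 and -0.26, 0.49 and 0.073), meibomian genes (-0.051 and -1.001, 0.75 and 0.30), alarm genes (-0.46 and 0.0079, 0.36 and 0.090), keratocyte genes (-0.55 and -0.00025, 0.32 and 0.24) and macrophage genes. The corneal score was -0.54 and 0.33 in intact and 0.28 and -0.07 in splenectomized mice, so it did not separate the groups. The member score minus the corneal score was -0.09 and -1.46 in intact and 0.95 and 0.60 in splenectomized mice. The groups did not overlap in that difference either. The set was chosen on this contrast, and 5 of its genes passed the filter only through the splenectomized pair. Nothing is read from the separation of its score or of this difference. In the difference, intact 1 lay nearer to the splenectomized arrays than to intact 2. Intact 1 also had the lowest lens (-1.23), retina (-1.52) and muscle (-1.07) scores of the 4 arrays, and intact 2 the highest retina (0.97) and muscle (1.25) scores. The list of macrophages and granulocytes had 5 tested genes, all of macrophages, and none of its granulocyte genes was tested. Its score was -0.49 and -0.39 in intact and 0.46 and 0.42 in splenectomized mice. All 5 genes were higher at an unadjusted limma p under 0.05. Of 6 tested keratocyte and fibroblast genes 5 were higher, 3 at that p, and all 6 lens and 7 retina genes were higher, 0 at that p. Of 7 tested T cell genes, which include those of the injected lymphoma, 1 was higher, of 5 muscle genes 2, and of 5 reference genes 1. The part of tissue make-up, including any lid skin, in the differences of the set was not tested.

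**Figure D4:**
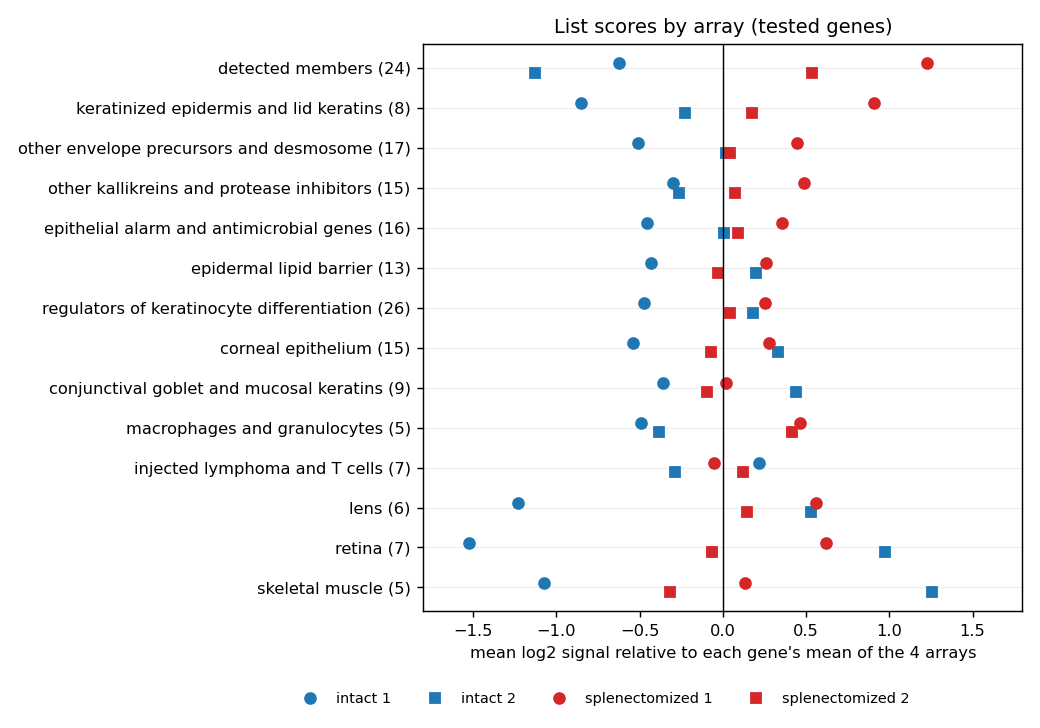
Scores of gene lists on each of the 4 arrays (mean log2 signal relative to each gene's mean over the arrays, tested genes in brackets). The 24 detected genes come from a set chosen on this contrast. They separate the groups, from -1.13 to -0.63 in intact and 0.53 to 1.22 in splenectomized mice. So do 7 of the 17 other lists scored, among them keratins of keratinized skin. The corneal, lens, retina and muscle lists do not. The meibomian and keratocyte lists, which separate the groups, and the hair and reference lists are not shown.

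Among the splenectomized pair, all 24 detected genes were higher on splenectomized 1 than on splenectomized 2. Of these, 20 had their highest signal of the 4 arrays on splenectomized 1. Among the intact pair, 13 were higher on intact 1 and 11 on intact 2. Without splenectomized 1 the median log2 difference of the 24 was 1.14 with 22 higher, and without splenectomized 2 it was 1.97 with 24 higher.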

How the data were processed

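Total RNA of 4 eyes was hybridised to Affymetrix mouse arrays after 3'-IVT Express labelling, per the labels' protocols. The deposited values are linear signal intensities per probe set, with GCOS 1.4 and MAS5 named in the submitters' processing notes. No label states the scaling target, and the trimmed mean was 150 on each array. The authors also deposited a detection call per array. Gene symbols came from GEO's platform annotation, and 34741 of 34945 single symbols matched RefSeq by Entrez identifier.

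Signals were taken to log2 with values of 0 raised to 0.1. Where a gene had several detected probe sets, that of highest average log2 signal was used, leaving 13148 genes. Splenectomized and intact arrays were compared with limma 3.58.1 under R 4.3.3 (lmFit, eBayes with an intensity trend, 2 residual degrees of freedom), two-sided, with Benjamini-Hochberg adjustment over all genes and a threshold of 0.05. The fit was tested on simulated data. An exact permutation of 2 against 2 arrays cannot reach 0.05 and was not used. Plots were made in matplotlib 3.10.9 (Python 3.11.15).

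The members and lists were chosen with earlier results of these data known. All detected members are named, with the value on each array for the 12 of highest mean log2 signal and for those past a log2 difference of 1. Krt12, Kprp, Krt2, Krt77, Krt78, Tff1, Muc5ac, Muc5b, Tff3 and Spdef were named after their values were seen. The consensus TGAGTCA was added after the promoters were seen, and 1 further motif searched is not reported here. Of each other list up to 4 genes of highest mean signal and up to 2 of largest difference could be named. Values on each array of other members are given by way of description. Alternatives covered scaling, pseudocount or floor, detection filter, intensity trend, replicate block, probe set choice and leaving out each array.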

Additional observations from a re-analysis of the deposited data

How the results depend on the processing

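Under every alternative with all 4 arrays and the detection filter kept, except the crossed pairing below, 0 members passed the threshold, and 21 to 24 members were higher. Without probe sets prone to reading other genes 22 members were tested, and under the others 24. The median log2 difference was 1.16 with a pseudocount of 16. With genes Present on all 4 arrays, 12 were tested, 12 were higher, 6 did not overlap and the median was 0.97. Without a filter 41 of 45 were higher and 30 did not overlap in that direction, beside 56.3% and 21.5% of all genes. Quantile normalization called 1 gene over all genes and 0 members. Rptn turned to 1.39 with the mean of its probe sets. With the replicate block 0 members and 0 genes passed, and the median stayed 1.58. No separate source ties same-numbered arrays together, and the differences between replicates 1 and 2 of the groups correlated at -0.443 over genes. With the pairing crossed, a choice made after seeing the data, 3 members (Calm4, Lce3a and Sbsn) and 99 genes passed.

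Leaving out 1 array left 0 to 16 members past the threshold, 0 to 2830 genes past the threshold over all genes, 20 to 24 members higher, and medians of 1.14 to 1.97. These fits take their spread from the other pair and assume that the lone array varies like it, and the SD of the difference between the 2 arrays was 0.745 in the intact and 0.408 in the splenectomized pair, so their counts are not compared. Each of these counts rests on a lone array in 1 group, so nothing is read from them. Signs that turned, with the range of the log2 difference over the 4 left-out arrays, were Aloxe3 (-0.31 to 0.59), Calml3 (-0.60 to 0.68), Dsg1a (-0.85 to 1.45), Krt5 (-0.22 to 0.29), Krt17 (-0.13 to 0.52), Asprv1 (-0.21 to 0.40), Klf4 (-0.21 to 0.61) and Tfap2a (-0.010 to 2.04), each lower without intact 1. Sprr2d (-0.62 to 3.38) and Sprr2f (-0.025 to 3.07) were lower, and Krt15 (-0.70 to 0.37), Krt12 (-1.08 to 0.94) and Hopx (-0.55 to 0.30) higher, without intact 2. Calml3 and Krt5 were also lower without splenectomized 1, and Rptn (-0.40 to 0.22) was higher without splenectomized 2, as was Krt12. The causes were not tested. Signals near those of Absent calls (median 6.1) limit Flg, Lce1a1, Lce1a2, Dsc1 and Rptn.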
